A study of Homo sapiens with 48 samples.

Results

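The genes described here are MOXD1, ADIRF, ACKR4, GJA5, SYPL2, PPP1R3C and ZP4, which are 7 of the 29744 genes in the count table. They were chosen by their fold changes in these libraries: their RNA was higher in GLIS3 CRISPRko fibroblasts than in their control cells, and lower in VP64_A fibroblasts than in VP64_Ctrl fibroblasts, at 1 or more times. Those guide contrasts are therefore given as a description, with no test. The name candidate GLIS3-repressed genes follows from this choice and was not tested by it.

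The RNA came from human IL11mNG fibroblasts, a line of immortalized skin fibroblasts that carries mNeonGreen as a reporter of IL11, grown from sorted reporter-positive clones. One arm of the study expressed Cas9 and the other dCas9-VP64, and each arm had cells with a guide to GLIS3 and cells with a non-targeting guide, kept as selected populations and not as clones. The groups were the CRISPRko control (H47_Ctrl in the labels) and GLIS3 CRISPRko (H47_KO) in the CRISPRko arm, and VP64_Ctrl and VP64_A in the CRISPRa arm. All cells were collected together after 0, 6, 12 or 24 h with TGFβ and IL-1β, each at 10 ng/ml, with 3 libraries per condition and 48 in all. The study states that replicates of its cell culture experiments were independent, and the labels do not say how the libraries of a condition were raised, so the p-values measure the spread between these libraries. Summed counts ranged from 2485059 to 6750532 in the CRISPRko control, 2761335 to 8542400 in GLIS3 CRISPRko, 3197084 to 10661004 in VP64_A and 2321990 to 9971965 in VP64_Ctrl.

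The labels disagree with each other in the CRISPRa arm. Libraries described as VP64_A are titled as controls with a wild-type genotype, and libraries described as VP64_Ctrl are titled as GLIS3 activation, while the cell line entry of all 48 libraries names Cas9 and a GLIS3 knockout. GLIS3 itself went with the descriptions, which name the groups here. In VP64_A its normalized level, in normalized CPM (counts per 1e6 after TMM scaling), was 23.6, 27.2 and 32.3 at 0 h, against 2.69, 1.93 and 2.07 in VP64_Ctrl. At 24 h it was 29.8, 27.8 and 24.1 in VP64_A and 3.11, 2.87 and 3.69 in VP64_Ctrl. The groups did not overlap at any of the 4 times, with a log2 fold change of 3.61 ± 0.24 (SE, adjusted p = 1.27e-12) at 0 h. In the CRISPRko arm GLIS3 was at 0.35, 0.144 and 0.391 CPM in GLIS3 CRISPRko at 0 h and at 2.04, 1.45 and 2.16 in the control. The knockout libraries lay below the control libraries at all 4 times, and the test passed at 0 h (log2 fold change -2.55 ± 0.56, adjusted p = 0.0355) but not at 6 h (adjusted p = 0.0925), 12 h (0.507) or 24 h (0.383). IL11 at 6 h was at 286 ± 48.7 CPM (SD, n = 3) in VP64_A and 47.5 ± 13.9 in VP64_Ctrl, next to 14.08 ± 4.29 in GLIS3 CRISPRko and 14.1 ± 3.54 in its control. At 0, 12 and 24 h the IL11 means were 1.12, 8.72 and 7.65 CPM in the knockout and 2.38, 17.07 and 8.48 in the control.

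GLIS3 is a Krüppel-like zinc finger transcription factor that can activate or repress its target genes, and inherited loss of it causes neonatal diabetes with congenital hypothyroidism. TGFβ signals through SMAD proteins and IL-1β through NF-κB and AP-1, and together they drive an inflammatory and matrix programme in fibroblasts. The 7 genes share no single pathway. MOXD1 encodes a monooxygenase of the copper-dependent dopamine β-hydroxylase family, PPP1R3C a glycogen-targeting subunit of protein phosphatase 1, and ADIRF a small protein described in fat cell differentiation. GJA5 encodes connexin 40, a gap junction protein of arterial endothelium and the atrial conduction system. ACKR4 is an atypical chemokine receptor that scavenges CCL19, CCL21 and CCL25 without G protein signalling. SYPL2, also called mitsugumin 29, is a synaptophysin family membrane protein of skeletal muscle triads, and ZP4 is a glycoprotein of the zona pellucida around the oocyte.

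The guides to GLIS3 are shown because every comparison rests on them, in lower case with the PAM read from the genome in capitals.
GLIS3 CRISPRko guide: ccacatcgaccagcgcaaagGGG
GLIS3 CRISPRa guide: cactaggctggccaattcgaAGG
The knockout guide matched GRCh38 at chr9:4117887-4117906 on the minus strand, in coding sequence of exon 4 of the canonical GLIS3 transcript. The activation guide matched chr9:4300157-4300176 on the plus strand, 89 bases upstream of the start of that transcript. A knockout guide makes small insertions or deletions in the gene, so the level of GLIS3 RNA checks it only in part.

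RefSeq promoters (250 bases before to 50 after a start, GRCh38.p14) were at hand for 5 of the 7 genes, in 6 entries, and not for ZP4 and ACKR4. They were searched on both strands for TGGGGGGT (the core of the GLIS site), TGANTCA (AP-1), GGAATG (TEAD), GTCTAGAC (a SMAD palindrome) and the NF-κB decamer. Only the second GJA5 entry held a match. The stretches are shown with the match in capitals, 5′ to 3′ on the minus strand, which is the strand of the gene.
GJA5, GLIS core, chr1:147760828-147760852: atttacTGGGGGGTagaaaaacctt
GJA5, TEAD on the other strand, chr1:147760803-147760830: cttttctggagCATTCCctctactttag
Counted from the start at this entry, the GLIS core covered bases -244 to -237 and the TEAD letters bases -217 to -212. Of all 35116 promoter entries, 1.47% held the GLIS core, 14% the TEAD letters, 7.71% the AP-1 letters, 0.202% the SMAD palindrome and 0.145% the NF-κB decamer. The last 3 were found in none of the 6 entries. These are matches of letters, and binding was not measured in these data.

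The genes lie on 4 chromosomes in GENCODE v44 (GRCh38). SYPL2 (chr1:109466546-109482134, plus strand), GJA5 (chr1:147756199-147773362, minus) and ZP4 (chr1:237877864-237890922, minus) are far apart on chromosome 1. ADIRF (chr10:86968432-86983934, plus) and PPP1R3C (chr10:91628442-91633071, minus) are on chromosome 10, ACKR4 (chr3:132597270-132618967, plus) on chromosome 3 and MOXD1 (chr6:132296055-132401475, minus) on chromosome 6. Some of the counts could hold reads of a neighbour, since the Nextera XT kit named in the labels does not mark strand. ACKR4 lies whole within ACAD11 on the opposite strand, which had a mean level of 5.13 TPM (a level that allows for transcript length) over the 48 libraries. ADIRF shares 13194 bases with a long non-coding RNA on its own strand (ENSG00000271880), whose reads a stranded kit would not separate either, and overlaps ADIRF-AS1 and a further non-coding RNA on the other strand. None of these has a row of its own in the count table. The start of MMRN2, on the other strand and at a mean of 0.0875 TPM, overlaps ADIRF too. ZP4 and GJA5 each overlap a long non-coding RNA on the opposite strand.

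On the TPM scale ADIRF was the most abundant of the 7 with a mean of 40.2 TPM over all libraries. MOXD1 followed at 17.5, ACKR4 at 11.4, ZP4 at 10.4, GJA5 at 7.83, SYPL2 at 7.54 and PPP1R3C at 6.94. ADIRF was thus above all but 6.45% of the genes in the table and PPP1R3C above all but 18.3%. Each gene spanned a wide range, from 0.424 to 36.5 TPM for SYPL2 and from 0 to 68.4 TPM for ZP4. The order above is that of the means. By the median over libraries PPP1R3C, at 5.46 TPM, lay above GJA5 at 4.61, SYPL2 at 3.33 and ZP4 at 2.145. GLIS3 itself was a low transcript, with a mean of 1.78 TPM.

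**Figure D1:**
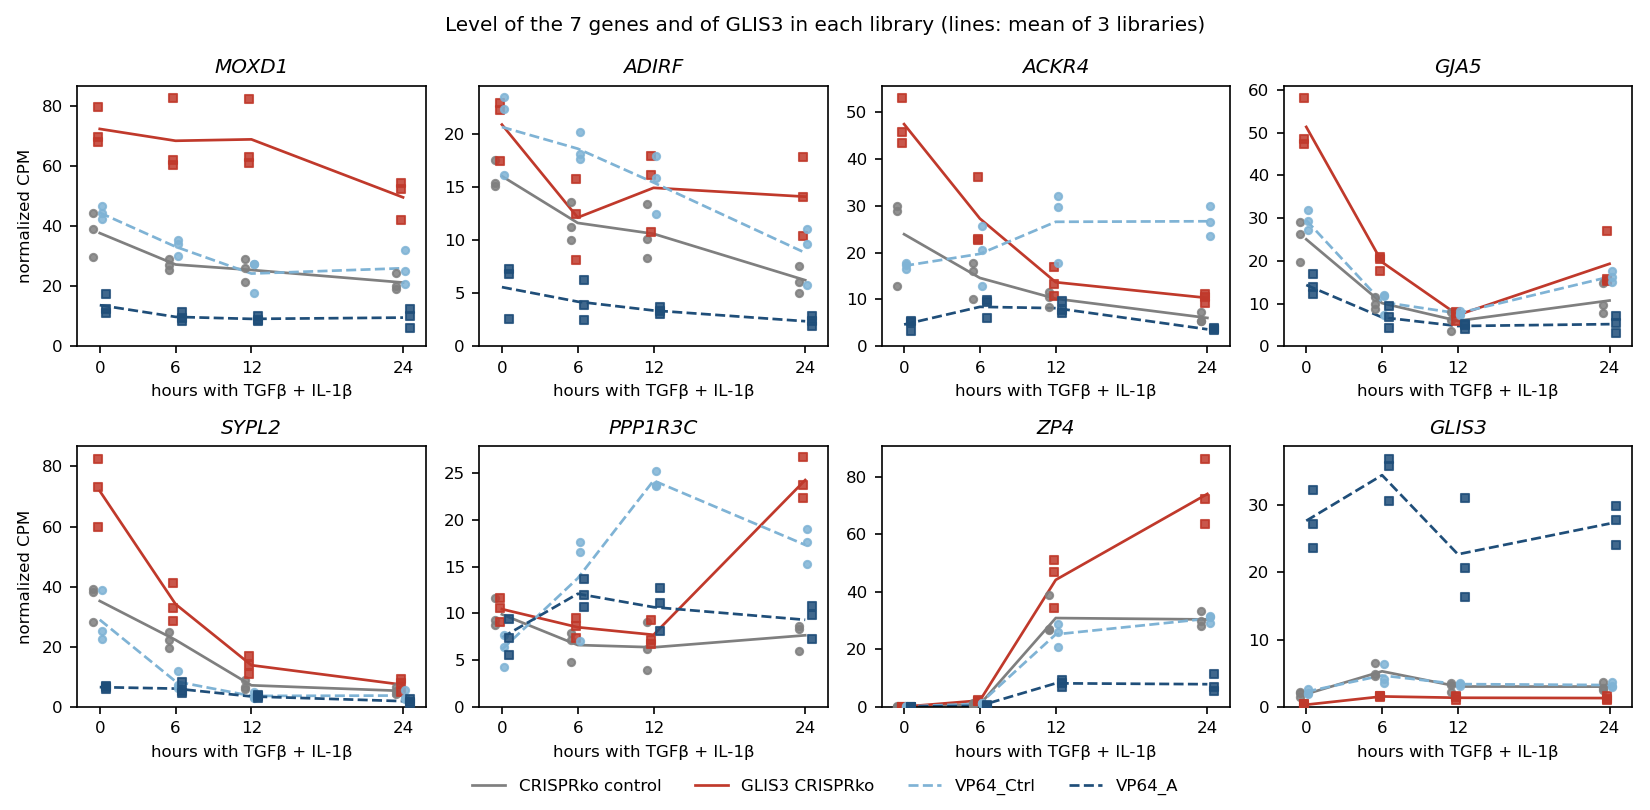
Normalized CPM of the 7 genes and of GLIS3 (y axes, from 0) against hours with TGFβ and IL-1β (x axes), with 1 point per library and lines through the mean of 3 libraries for each of the 4 groups of cells. MOXD1 is highest in GLIS3 CRISPRko and lowest in VP64_A at every time, whereas ACKR4 falls in both groups of the CRISPRko arm and not in VP64_Ctrl, and ZP4 appears only after cytokines.

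MOXD1 was the gene whose groups stood apart at every time. The control cells held 29.7, 44.2 and 39.2 CPM at 0 h and GLIS3 CRISPRko 69.5, 67.9 and 79.6. At 24 h the control held 19.2, 24.4 and 20.1 CPM and the knockout 42, 52.4 and 54.3. All 3 knockout libraries lay above all 3 control libraries at each of the 4 times, an order found in 8.29%, 7.74%, 9.13% and 7.12% of the genes tested at 0, 6, 12 and 24 h. The log2 fold change ran from 0.96 ± 0.17 (SE) at 0 h to 1.40 ± 0.18 at 12 h. In the CRISPRa arm MOXD1 was at 12.4, 17.6 and 11.1 CPM in VP64_A at 0 h and at 42.4, 44.4 and 46.7 in VP64_Ctrl. There, too, the groups were apart at all 4 times, where 13.7%, 9.29%, 8.21% and 10.9% of the genes tested had all VP64_A libraries lowest, and the log2 fold change lay between -1.37 ± 0.23 and -1.77 ± 0.23. The controls of the arms were close to each other, with 37.7 ± 7.41 CPM (SD, n = 3) in the CRISPRko control and 44.5 ± 2.16 in VP64_Ctrl at 0 h.

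ADIRF showed the steadiest deficit in VP64_A. It was at 6.79, 2.62 and 7.32 CPM there at 0 h against 22.4, 23.4 and 16.1 in VP64_Ctrl, and at 2.85, 2.38 and 1.88 at 24 h against 9.62, 5.73 and 11.1. The groups were apart at all 4 times, with log2 fold changes from -1.89 ± 0.28 to -2.18 ± 0.33. In the CRISPRko arm the libraries overlapped at 0, 6 and 12 h and separated only at 24 h, when the control held 7.54, 5.07 and 6.08 CPM and the knockout 14.1, 10.4 and 17.8. The log2 fold change at 24 h was 1.17 ± 0.26, next to 0.08 ± 0.26 at 6 h.

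ACKR4 had the widest single gap of the 7 genes. At 24 h its level was 3.63, 3.4 and 3.92 CPM in VP64_A and 29.9, 23.6 and 26.6 in VP64_Ctrl, a log2 fold change of -2.86 ± 0.27. The smallest gap was at 6 h, with -1.27 ± 0.25, and the groups were apart at all 4 times. GLIS3 CRISPRko held 43.4, 45.7 and 53 CPM at 0 h, above the control at 12.9, 29.9 and 28.9. Control replicate 1 was low in that trio, and without it the log2 fold change at 0 h moved from 1.02 ± 0.24 to 0.70. At 6 and 24 h the knockout was also higher in all 3 libraries, and at 12 h the groups overlapped.

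SYPL2 differed most before cytokines were added in both arms, and GJA5 did so in the CRISPRko arm only. GJA5 was at 48.5, 47.3 and 58.1 CPM in GLIS3 CRISPRko at 0 h and at 29, 26.4 and 19.7 in the control, with a log2 fold change of 1.04 ± 0.21. In VP64_A it was at 12.3, 16.8 and 14 CPM against 29.4, 31.8 and 27.3 in VP64_Ctrl (-1.04 ± 0.23). The CRISPRko groups were apart at 0, 6 and 24 h and overlapped at 12 h, and VP64_A lay below VP64_Ctrl at 0, 12 and 24 h. At 24 h VP64_A was at 3.11, 5.43 and 7.05 CPM against 16.3, 15 and 17.6 in VP64_Ctrl, its widest difference in this arm (-1.61 ± 0.27). SYPL2 was at 73.2, 82.7 and 59.7 CPM in the knockout at 0 h and at 28.3, 38.1 and 39.2 in the control (1.05 ± 0.20). VP64_A held 6.01, 6.85 and 6.65 CPM at 0 h and VP64_Ctrl 22.7, 25.2 and 39, a log2 fold change of -2.15 ± 0.28. The CRISPRa groups overlapped at 6, 12 and 24 h, with 1.55, 2.72 and 1.25 CPM in VP64_A and 2.67, 2.87 and 5.59 in VP64_Ctrl at 24 h. In the CRISPRko arm the groups were apart at 0, 6 and 12 h.

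PPP1R3C and ZP4 differed only once cytokines had acted. PPP1R3C was at 9.1, 11.7 and 10.6 CPM in the knockout at 0 h and at 8.71, 9.33 and 11.6 in the control. At 24 h the knockout held 22.4, 23.7 and 26.7 CPM and the control 8.29, 5.99 and 8.65, and the groups were apart at that time alone (log2 fold change 1.63 ± 0.25). In VP64_Ctrl it reached 23.6, 23.8 and 25.2 CPM at 12 h, while VP64_A was at 11.1, 12.8 and 8.08 (-1.16 ± 0.26). The fitted difference at 0 h was 0.30 ± 0.26, the one value of a member in this arm above 0. For ZP4 no library held more than 1 count at 0 h, so no fold is given there. At 24 h it was at 72.2, 86.2 and 63.4 CPM in the knockout, 29.8, 33.2 and 28.1 in the control, 6.74, 5.43 and 11.3 in VP64_A and 31.1, 31.5 and 29.1 in VP64_Ctrl. At 24 h the knockout differed from its control by a log2 fold change of 1.29 ± 0.19 and VP64_A from VP64_Ctrl by -1.91 ± 0.25, and both control groups held similar levels.

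**Figure D2:**
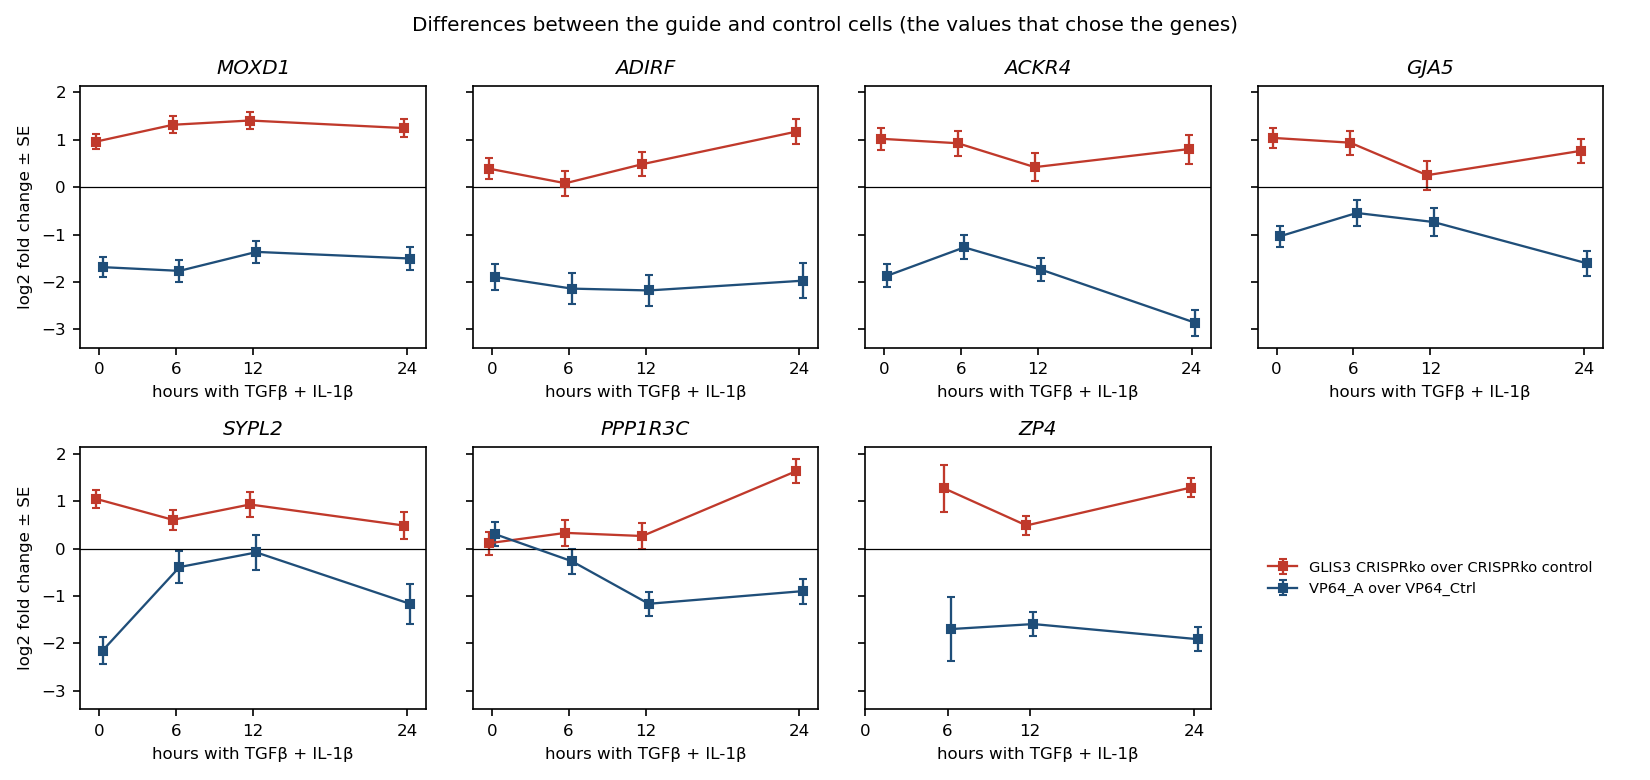
Log2 fold change with its SE (y axes) of GLIS3 CRISPRko over the CRISPRko control and of VP64_A over VP64_Ctrl against hours with TGFβ and IL-1β (x axes), from 3 libraries a side, with ZP4 at 0 h left out. These values chose the genes; MOXD1 keeps both differences at all times, SYPL2 in VP64_A goes from -2.15 at 0 h to -0.08 at 12 h, and PPP1R3C in the knockout reaches 1.63 at 24 h.

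The choice was one of several possible. Of 10691 genes tested in both arms, 56 (0.524%) were called higher in GLIS3 CRISPRko at 1 or more times, 756 (7.07%) were called lower in VP64_A, and 27 (0.253%) met both at an adjusted p under 0.05. The 7 genes are among these 27. Only 3 of the 7 met the rule without CRISPRko control 0 h replicate 1, and likewise without GLIS3 CRISPRko 0 h replicate 1 or replicate 2, with ADIRF, GJA5, ACKR4 and SYPL2 lost each time. At a single time the called share was 0.173%, 0.274%, 0.0547% and 0.137% for higher in the knockout and 5.12%, 1.90%, 1.94% and 2.13% for lower in VP64_A, at 0, 6, 12 and 24 h. MOXD1 was called at every time in both arms, as were COL8A1, a short-chain collagen, and SERPINB7, a serine protease inhibitor, which are not among the 7. Among the other 18 genes were ACTC1, the cardiac α-actin, called lower in VP64_A at 3 times, and MMP1, a collagenase, with a log2 fold change of -3.34 in VP64_A at 0 h. The others included AKR1C3, ANGPT1, CXCL2, DLL4, DUSP6, EREG, ESM1, FLT1, GSN, IGFBP4, PAPPA, PRDX6, SYNPO2 and TPP1, with TPP1 at 1.11 in the knockout at 0 h. Just inside the threshold lay PRDX6 (lowest adjusted p in the knockout 0.0418), ADIRF (0.0462) and ACKR4 (0.0469), and just outside it GLT8D2 (0.0517), IL1A (0.0527) and CD68 (0.055).

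The rule behind the choice of the 7 genes does not use their response to the cytokines. How these 7 were taken from the 27 that met it is not given, and earlier results were known. That the choice was free of the response is therefore not established. The response was averaged over both groups of cells of an arm. The error of this contrast is independent of that of the guide contrasts only if both groups vary alike, which was not tested. Their counts could be unlike, as for SYPL2 at 24 h with 22 in VP64_A and 71 in VP64_Ctrl. The 0 h libraries, on which MOXD1, ACKR4, GJA5 and SYPL2 were called in the knockout, are its baseline. A guide effect that changes with time also enters the average. ZP4 passed the filter on low counts only through its libraries at 12 and 24 h, where it is high, so it had to rise and is left out of these counts. In the CRISPRko arm 4, 6 and 5 of the other 6 fell at 6, 12 and 24 h, where 16.1%, 18.9% and 9.51% of all genes tested fell. None of the 6 was called higher there, where 16.7%, 19% and 12.7% of all genes rose. In the CRISPRa arm 3, 4 and 4 fell, against 18.1%, 16.4% and 10.5% of all genes, and 2, 2 and 1 rose, against 20.4%, 20.4% and 15.3%. At 24 h the 6 had a median log2 fold change of -1.11 (CRISPRko arm) and -0.88 (CRISPRa arm), next to 0.01 and -0.01 over all genes tested. The excess over all genes depends on the scale. On log2(TPM + 1), 5355, 4554 and 2733 of the 10980 genes tested in the CRISPRa arm were called lower at 6, 12 and 24 h and 735, 741 and 647 higher, with 4 of the 6 lower at each time. Of the 10962 genes tested in the CRISPRko arm, 2904, 2506 and 696 were called lower on that scale and 825, 966 and 753 higher, with 6, 5 and 5 of the 6 lower.

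SYPL2 had the largest fall of these 6 genes at 24 h in both arms, while at 6 h GJA5 fell further. Its mean went from 35.2 ± 6.0 CPM (SD, n = 3) at 0 h to 5.25 ± 1.21 at 24 h in the CRISPRko control and from 71.8 ± 11.5 to 7.29 ± 2.24 in the knockout. Averaged over the CRISPRko arm, the log2 fold changes after 6, 12 and 24 h were -0.88 ± 0.15, -2.34 ± 0.17 and -2.997 ± 0.17 (adjusted p = 1.28e-15 for the last). In the CRISPRa arm it was -1.003 ± 0.22, -1.95 ± 0.23 and -2.38 ± 0.24 at the same times (adjusted p = 1.96e-09 at 24 h). GJA5 reached its lowest mean at 12 h in all 4 groups of cells, then stood higher at 24 h. Its averaged log2 fold change was -1.38 ± 0.17, -2.44 ± 0.18 and -1.31 ± 0.16 in the CRISPRko arm (adjusted p = 1.33e-07 at 24 h) and -1.32 ± 0.18, -1.76 ± 0.18 and -1.11 ± 0.18 in the CRISPRa arm (9.14e-06 at 24 h).

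ADIRF and MOXD1 fell by less. ADIRF was lower at 24 h by a log2 fold change of -0.91 ± 0.17 in the CRISPRko arm (adjusted p = 0.00015) and -1.20 ± 0.23 in the CRISPRa arm (0.000151). Its 12 h change in the CRISPRa arm, -0.54 ± 0.22, passed at an adjusted p of 0.0493 and missed the threshold when any of 16 libraries was left out in turn, with an adjusted p of up to 0.148 without VP64_A 0 h replicate 1. MOXD1 changed at 24 h by -0.68 ± 0.12 (7e-05) in Cas9 cells, the CRISPRko arm, and by -0.64 ± 0.16 (0.00217) in dCas9-VP64 cells. At 12 h in the CRISPRko arm it was at -0.32 ± 0.12 (0.0365), a call that was lost without any of 7 libraries, with an adjusted p of up to 0.131 without CRISPRko control 0 h replicate 2. With limma on log2(TPM + 1) and log2(TPM + 0.1) MOXD1 changed there by -0.51 and -0.54 and was not called (adjusted p = 0.0603 and 0.063). The median of all genes moved by -0.20 and -0.26 on these scales. Its 6 h change in the CRISPRa arm, -0.46 ± 0.16 (0.0202), was lost without VP64_A 0 h replicate 2 (0.0892) or VP64_A 6 h replicate 1 (0.0585).

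ZP4 had next to no counts before cytokines were added. No count was seen in the 3 GLIS3 CRISPRko and the 3 VP64_A libraries at 0 h, and 1 count was seen in each of the control groups. By 24 h GLIS3 CRISPRko held 1673 counts over 3 libraries and VP64_A 114, which is at least 470-fold and at least 73.5-fold higher, against a floor of 3 counts over the group at 0 h. In the CRISPRko control 350 counts at 24 h against 1 gave a ratio of 514, with an exact 95% interval of 91.67 to 20360 that covers counting error only. VP64_Ctrl rose by a ratio of 926 (165.5 to 36630). No test of this rise is given, because the gene entered the fit through the times at which it is high. At 6 h the counts were still small, with 14 in the CRISPRko control, 17 in the knockout, 4 in VP64_A and 13 in VP64_Ctrl.

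**Figure D3:**
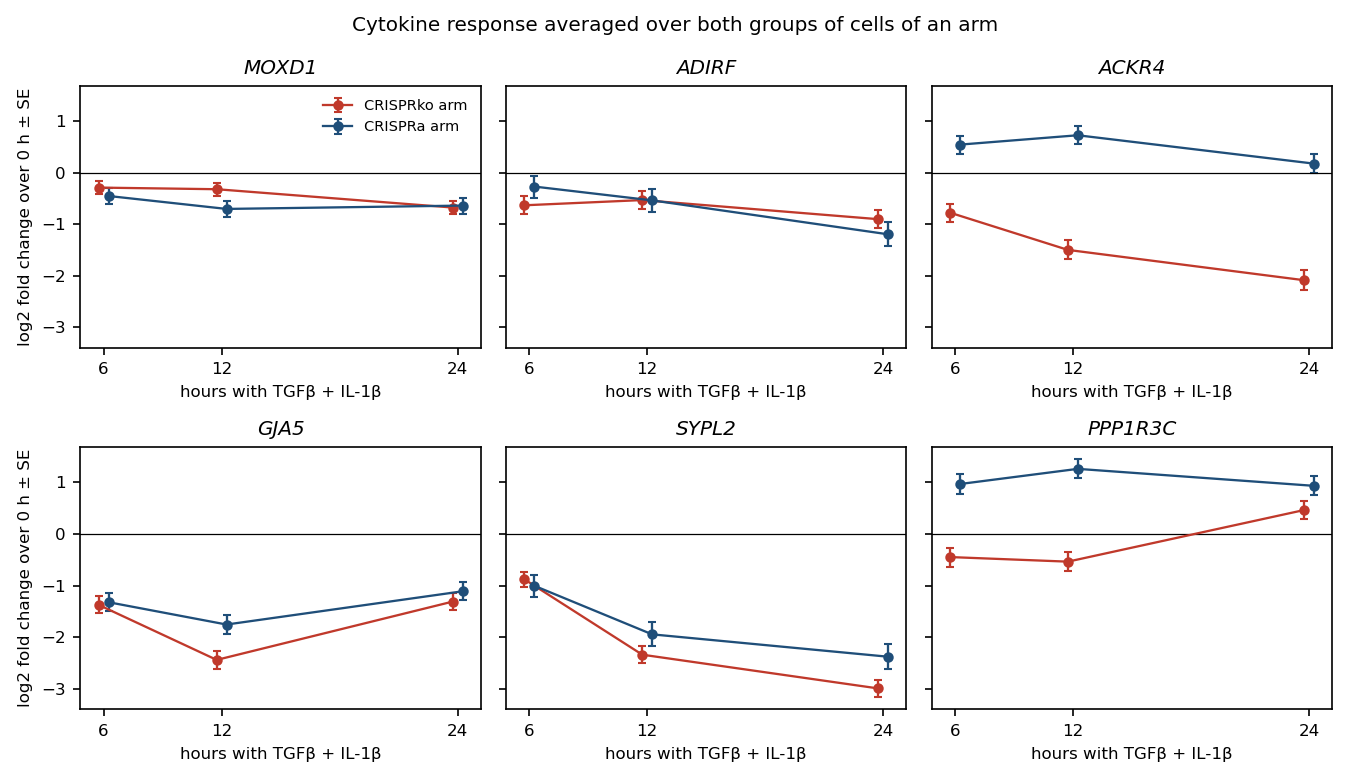
Log2 fold change over 0 h with its SE (y axes), averaged over both groups of cells of an arm, at 6, 12 and 24 h with TGFβ and IL-1β (x axes), for 6 of the 7 genes. SYPL2, GJA5, ADIRF and MOXD1 lie below 0 in both arms, whereas ACKR4 and PPP1R3C separate, with ACKR4 at -2.09 and 0.17 at 24 h.

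ACKR4 fell in the CRISPRko arm. In counts, though not on the TPM scales, it was called higher at 6 and 12 h in the other arm. In the CRISPRko control it went from 12.9, 29.9 and 28.9 CPM at 0 h to 5.46, 7.37 and 5.38 at 24 h, and in GLIS3 CRISPRko from 43.4, 45.7 and 53 to 9.18, 11.3 and 10.6. In VP64_Ctrl its CPM went the other way, from 17.7, 16.4 and 17.3 to 29.9, 23.6 and 26.6. In TPM the same libraries overlapped, with 14.1, 12.1 and 21.8 at 0 h and 19.5, 16.8 and 20.3 at 24 h, and the 6 h mean was lower than that at 0 h (10.8 against 16). VP64_A started and ended low, with 5.48, 3.36 and 5.16 CPM at 0 h and 3.63, 3.4 and 3.92 at 24 h. In the CRISPRko arm the averaged log2 fold change was -0.78, -1.5 and -2.09 at 6, 12 and 24 h (SE 0.18, 0.19 and 0.19, adjusted p = 2.05e-10 at 24 h). In the CRISPRa arm it was 0.54 ± 0.17 at 6 h (adjusted p = 0.0147), 0.72 ± 0.17 at 12 h (0.0013) and 0.17 ± 0.19 at 24 h (0.554). The 6 h call was lost without VP64_A 0 h replicate 2 (0.0509), VP64_A 6 h replicate 2 (0.0538) or VP64_Ctrl 6 h replicate 2 (0.0631).

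The difference between these responses was larger than the spread between libraries at 12 and 24 h on every scale, and at 6 h in counts only. In a fit of all 48 libraries, a comparison chosen after seeing the data, the ACKR4 response in the CRISPRa arm exceeded that in the CRISPRko arm by 1.29 ± 0.26 at 6 h (adjusted p = 0.00482), 2.20 ± 0.26 at 12 h (2.21e-07) and 2.26 ± 0.28 at 24 h (4.17e-07), on the log2 scale. The CRISPRa response was called higher for 0.140%, 0.657% and 1.5% of all genes tested at these times. Of 2609 genes called in both arms at 6 h, 5 (0.192%) had opposite directions, and ACKR4 was 1 of them; at 12 h they were 8 of 2764 (0.289%), and both ACKR4 and PPP1R3C were among them. On log2(TPM + 1) with limma, a scale on which the median of all genes moved by -0.43 at 6 h in the CRISPRa arm, the ACKR4 change at 6 h was -0.05 (adjusted p = 0.868), or 0.38 relative to that median. At 12 h it was 0.21 there (adjusted p = 0.44) and 0.25 on log2(TPM + 0.1) (0.388), so no rise of ACKR4 was called on these scales. The 12 h and 24 h differences between the arms still passed there, at 1.79 for both (adjusted p = 0.000377 and 0.000313), and the 6 h difference did not (0.94, adjusted p = 0.49, and 1.03, 0.595, on log2(TPM + 0.1)).

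PPP1R3C also parted between the arms. The CRISPRko control was at 9.88 ± 1.53 CPM (SD, n = 3) at 0 h and 6.36 ± 2.56 at 12 h, and VP64_Ctrl at 6.13 ± 1.73 and 24.2 ± 0.85. The averaged log2 fold change was 0.97 ± 0.19, 1.26 ± 0.18 and 0.94 ± 0.19 in the CRISPRa arm at 6, 12 and 24 h (adjusted p = 0.000241 at 24 h). In the CRISPRko arm it was -0.45 ± 0.18 (adjusted p = 0.06), -0.54 ± 0.19 (0.0219) and 0.46 ± 0.17 (0.0514). The 12 h call of that arm was lost without any of 4 libraries, with an adjusted p of up to 0.114 without CRISPRko control 12 h replicate 2, and the 24 h change passed without any of 5, at its lowest 0.0337 without the same library. The responses differed by 1.39 ± 0.26 at 6 h (adjusted p = 0.00235) and 1.78 ± 0.26 at 12 h (1.47e-05), and by 0.46 ± 0.25 at 24 h (0.449), where the 95% interval of the difference ran from -0.03 to 0.96. At 12 h VP64_A was at a mean of 10.7 CPM, next to the 24.2 of VP64_Ctrl. At 24 h the means were 7.64 CPM in the CRISPRko control, 24.3 in GLIS3 CRISPRko, 17.3 in VP64_Ctrl and 9.30 in VP64_A. The gene was called lower in VP64_A at 12 and 24 h and higher in the knockout at 24 h. These guide differences chose the gene and enter the averages at 12 and 24 h, so the 12 h test is not free of the choice. On log2(TPM + 1) and log2(TPM + 0.1) the 6 h difference was 0.97 (adjusted p = 0.53) and 1.14 (0.639), and the 12 h difference still passed (1.39, 0.0224, and 1.61, 0.0321). On log2(TPM + 1) the CRISPRa response itself passed at 12 h (0.015) but not at 6 h (0.216) or 24 h (0.0883).

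For the other 4 genes that could be fitted no difference between the arms was called at any time. The widest interval that crossed 0 was that of ADIRF at 24 h, from -0.87 to 0.28, so differences within it are not excluded. The unadjusted intervals of GJA5 at 12 h (0.15 to 1.18), MOXD1 at 12 h (-0.79 to -0.02) and SYPL2 at 24 h (0.00 to 1.23) did not cross 0, and their adjusted p values were 0.301, 0.457 and 0.396. Averaged over all times and both groups, 30.9% of all genes tested differed between the arms, and the log2 difference (CRISPRa over CRISPRko) was -1.66 ± 0.11 for SYPL2, -1.21 ± 0.07 for MOXD1, -0.76 ± 0.11 for ADIRF, -0.59 ± 0.09 for GJA5, -0.46 ± 0.10 for ACKR4 and 0.34 ± 0.09 for PPP1R3C. The choice of the genes as high in GLIS3 CRISPRko and low in VP64_A enters these 6 values, so they carry no test. Cas9 and dCas9-VP64 cells were made and selected separately, and these cannot be told apart from the arm.

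**Figure D4:**
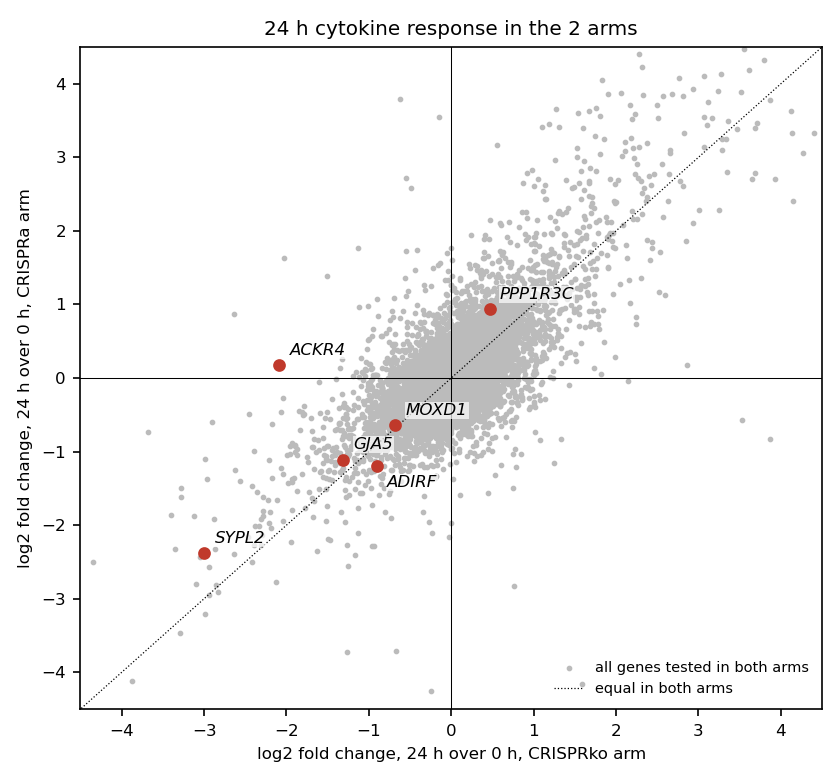
Averaged log2 fold change at 24 h over 0 h in the CRISPRko arm (x axis) and in the CRISPRa arm (y axis) for the 10691 genes tested in both (grey; 60 lie beyond the axes), with 6 of the 7 genes in red and equal change as a dotted line. GJA5, MOXD1 and ADIRF lie near the line. SYPL2 is at -2.997 and -2.38 and PPP1R3C at 0.46 and 0.94, and of the 6 genes ACKR4 lies furthest off it at -2.09 and 0.17.

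As a check of the stimulation, the cytokine genes IL6 and IL8 (CXCL8) rose in both arms at every time. IL6 was higher by a log2 fold change of 10.40 ± 0.32 at 6 h (CRISPRko arm) and 10.46 ± 0.28 (CRISPRa arm), and IL11 by 3.10 ± 0.30 and 3.95 ± 0.19. LIF rose by 10.77 ± 0.31 and 10.39 ± 0.31 at 6 h and had come down to 3.23 ± 0.43 and 3.91 ± 0.39 at 24 h. All of these passed at adjusted p values of at most 4.74e-10 at 6 h.

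The functional relatives of the 7 genes were counted from fixed lists. Of 31 other genes of glycogen metabolism 18 were tested, and 2 rose and 7 fell in the CRISPRko arm at 12 h, where 19% and 18.9% of all genes did, with 2 and 5 in the CRISPRa arm, where 20.4% and 16.4% did. At 6 h 3 rose and 2 fell (CRISPRko arm, against 16.7% and 16.1% of all genes), or 5 and 2 (CRISPRa arm, against 20.4% and 18.1%). At 24 h 1 rose and 3 fell in the CRISPRko arm, where 12.7% and 9.51% of all genes did, while 4 rose and 3 fell in the CRISPRa arm, where 15.3% and 10.5% did. PYGL, the liver glycogen phosphorylase, fell at 24 h by a log2 fold change of -1.59 ± 0.23 and -1.28 ± 0.16, PHKB, a phosphorylase kinase subunit, by -0.86 ± 0.13 and -0.63 ± 0.14, and STBD1, a glycogen-binding protein, rose by 0.59 ± 0.14 and 1.07 ± 0.14. In VP64_A 4, 1, 2 and 3 of the 18 were called higher at 0, 6, 12 and 24 h, where higher calls made up 4.29%, 1.86%, 2.37% and 1.99% of all genes tested, and none was called lower. PYGL was called higher there at 2 times, and PGM1, which interconverts glucose phosphates, was called higher at all 4 times (0.87 to 1.28), as was GYS1, the glycogen synthase, at 3 times. These shares, too, depend on the scale: at 0 h 471 genes were called higher and 562 lower in counts, but 138 and 989 on log2(TPM + 1), and at 24 h 219 and 234 against 98 and 297. Of the connexins and pannexins 4 of 23 were tested. At 6 h 3 of the 4 rose and none fell in each arm. At 12 h 2 rose in the CRISPRko arm, and 1 rose and 1 fell in the CRISPRa arm. At 24 h 1 rose and 1 fell in each arm. The shares of all genes are those given for the glycogen list. In VP64_A 1 was called lower and none higher at 0 h, where 5.12% and 4.29% of all genes were. At 6 and 24 h 1 was called higher and none lower, where higher calls made up 1.86% and 1.99%. PANX1, a channel-forming pannexin, rose by 0.63 ± 0.14 and 1.06 ± 0.12 at 24 h, and GJA1, connexin 43, fell by -0.40 ± 0.14 and -0.99 ± 0.17 and was called higher in VP64_A at 2 times. In the synaptophysin and triad list 7 of 20 were tested. At 24 h 1 rose and 1 fell in the CRISPRko arm, and 2 rose and 1 fell in the CRISPRa arm. In GLIS3 CRISPRko 1 was called higher at 0 h, where 0.173% of all genes were. In VP64_A 1 was called lower at 0 and at 24 h, where 5.12% and 2.13% were, and none higher. JPH2, a junctophilin, rose at 24 h by 1.60 ± 0.25 and 1.53 ± 0.24, opposite to SYPL2, and was called lower in VP64_A at 2 times. Of the adipogenic list 1 of 17 was tested in each arm, PLIN2, a lipid droplet coat protein, called higher in VP64_A at 2 times. The atypical chemokine receptor list, which holds the ligands of ACKR4, had none of its 9 genes pass the filter, the copper monooxygenase list 1 of 2 and the zona pellucida module list 2 of 10. The 1 copper monooxygenase was called higher in GLIS3 CRISPRko at 6 h (0.95), where 0.274% of all genes were. It fell at 24 h in the CRISPRko arm (-0.39), where 9.51% did, and was not called in VP64_A. Of the zona pellucida genes 1 fell at 6 h and 1 rose at 12 h in the CRISPRa arm, where 18.1% and 20.4% did.

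Markers fixed for other cell types were checked against the labelled cell type, because several of the 7 genes are best known from other tissues. The 9 fibroblast markers summed to a median of 26430 TPM in the CRISPRko control, 22760 in GLIS3 CRISPRko, 18430 in VP64_A and 21010 in VP64_Ctrl, with VIM the most abundant and far above the rest. Single fibroblast markers moved with the guides, in both directions in VP64_A. Of the 9, 3 were called higher and none lower there at 0 h (the collagens COL1A1, COL1A2 and COL3A1), where 4.29% and 5.12% of all genes were. At 6 h none was called higher and 2 lower, against 1.86% and 1.90% of all genes, and at 12 and 24 h 1 each way, against 2.37% and 1.94% and then 1.99% and 2.13%. LUM, a matrix proteoglycan, was at 170 ± 10.4 TPM (SD, n = 3) in VP64_A and 361 ± 3.92 in VP64_Ctrl at 6 h, and was called lower in VP64_A at 2 times. PDGFRA, a growth factor receptor, was at 4.75 ± 0.27 TPM in VP64_A and 2.01 ± 0.11 in VP64_Ctrl at 24 h, and was called higher in VP64_A at 2 times. DCN, another matrix proteoglycan, was at 9.66 ± 0.90 TPM in GLIS3 CRISPRko and 35.4 ± 2.72 in its control at 0 h. It was the 1 marker of the 9 called lower in the knockout at 0 and at 6 h, and none was called lower at 12 or 24 h or higher at any time. Lower calls there made up 0.128%, 0.0456%, 0.0274% and 0.0730% of all genes at 0, 6, 12 and 24 h. The median log2 fold change of the 9 in the knockout was -0.43 at 0 h and -0.51 at 24 h, next to 0.02 over all genes at both times. The endothelial list, known for GJA5, summed to medians of 0.0853 to 0.805 TPM, and 5 to 7 of its 7 genes were below 0.1 TPM in each group of cells. The adipocyte list summed to a median of 0 TPM in every group. In the skeletal muscle list, known for SYPL2, the median sum was 1.58 to 2.28 TPM, with ACTA1 the most abundant, and in the oocyte list, known for ZP4, at most 0.177 TPM. The keratinocyte list moved with the CRISPRa guide: its sum had a median of 59.9 TPM in VP64_A, 14.1 in VP64_Ctrl, 7.05 in the CRISPRko control and 7.34 in GLIS3 CRISPRko. Most of that was KRT14, a basal keratin, at 49.9 TPM in VP64_A and 7.17 in VP64_Ctrl, with 3 of the 5 genes below 0.1 TPM in both. The part of this in the VP64_A values of the 7 genes was not tested. In the leukocyte list CD68, a lysosomal protein abundant in macrophages, was at 21.98 TPM in VP64_A, 41.7 in VP64_Ctrl, 20.7 in the CRISPRko control and 33 in GLIS3 CRISPRko, and PTPRC and CD3E were below 0.1 TPM. In the smooth muscle and pericyte list CSPG4 was at 20.4 TPM in VP64_A and 43.5 in VP64_Ctrl, and MYH11 was below 0.1 TPM. CNN1 of the same list went the other way, with 6.15 ± 2.17 TPM (SD, n = 3) in VP64_A and 0.969 ± 0.46 in VP64_Ctrl at 6 h, and was called higher in VP64_A at 2 times. The part of these in the results was not tested either. RNA was measured in bulk, so fewer cells with a transcript and less of it per cell cannot be told apart.

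Genes with the most similar profile were sought over the 16 condition means of log2 CPM, each arm centred on its own mean, among 11422 genes. For MOXD1 they were S100A4 (Pearson's r = 0.91), COL8A1 (0.91) and PSG5 (0.89), and for ADIRF ITGA4 (0.93), SPHKAP (0.92) and NOV (0.92). ACKR4 was most like STOM (0.88), PSG9 (0.87) and NIPSNAP3A (0.86), GJA5 like DKK1 (0.95), MBOAT1 (0.94) and FAT4 (0.94), and SYPL2 like EHD3 (0.94), CD248 (0.94) and BLVRB (0.93). ZP4 went with MYOCD (0.99), STEAP1 (0.97) and EBI3 (0.96), which has the largest r of the 7, and PPP1R3C with ROBO3 (0.79), SPATS2L (0.77) and ABHD13 (0.71), the smallest. The 16 means share libraries, times and the guide differences that chose the genes, so r is a description. Among the 7 themselves, MOXD1 and ADIRF were the most alike (r = 0.87), and ZP4 and SYPL2 the most opposed (r = -0.83).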

How the data were processed

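Per the labels and the study's methods, reads were demultiplexed with bcl2fastq, checked with FastQC, trimmed with Trim Galore, aligned with STAR to GRCh38 and quantified with Salmon, and ribosomal reads were removed with SortMeRNA. Versions, the annotation and the strand setting are not given in the sources used here. The authors deposited estimated counts per gene, of which 6.38% were not whole, and TPM, for 48 libraries. Counts were rounded and tested with edgeR 4.0.16 (filterByExpr, TMM, quasi-likelihood F test, Benjamini-Hochberg adjusted p under 0.05), 1 fit per arm over 8 conditions (10962 genes in the CRISPRko arm, 10980 in the CRISPRa arm) and 1 fit of all 48 libraries (11422 genes). SE is that of the log2 fold change. ZP4 could not be fitted in the last one, since 2 of its conditions were at 0. CPM use the TMM factors of the 48-library fit.

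As alternatives, the counts of calls and the members' fold changes, and not the list, marker, cytokine gene or similarity values, were recomputed by DESeq2 1.42.0, by edgeR with DESeq2 size factors, with no filter, with the replicate number as a block, without each library, and by limma 3.58.1 from TPM in log2 form, adding 1 or 0.1. The scripts were tested on simulated data. Replicate libraries differed by more than sampling noise. The chi-square per degree of freedom was 3.59 at its lowest and 62.46 for GLIS3 CRISPRko 24 h replicates 1 and 3. VP64_Ctrl 0 h replicate 3 had 23.1% of its counts in its top 50 genes, against 32.6% and 34.9% in replicates 1 and 2. TMM scaling treated its 3632529 counts as 6748947, and the 8542400 of GLIS3 CRISPRko 24 h replicate 3 as 12975141, so their CPM rest on large factors. Named genes were the 7 members, GLIS3, all others that met the same rule, the 3 most similar genes per member, up to 6 called genes per list, list genes called in a guide contrast at 2 or more times, and 4 cytokine genes. The difference in response between the arms was added after seeing the data. The members and lists were chosen with earlier results of these data known. IL8 and DARC stand in the tables for CXCL8 and ACKR1. Some of the other genes that met the rule are not reported here.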

Additional observations from a re-analysis of the deposited data

Results flagged for a closer look

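ACKR4 and PPP1R3C were set apart because their cytokine responses differed between the arms by a test of the difference itself. That test was added after seeing the data, and it uses libraries whose guide differences chose both genes, so it is not independent of the choice. For ACKR4 the response in the CRISPRa arm exceeded that in the CRISPRko arm by 1.29, 2.20 and 2.26 on the log2 scale at 6, 12 and 24 h, and for PPP1R3C by 1.39 and 1.78 at 6 and 12 h. Both genes kept these calls without any 1 of the 48 libraries, but the 6 h difference was lost on log2(TPM + 1) and log2(TPM + 0.1) for ACKR4 (adjusted p = 0.49 and 0.595) and for PPP1R3C (0.53 and 0.639), while the later ones passed there.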

How the results depend on the processing

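Across the alternatives the 7 genes met the rule in both arms with DESeq2, with no filter and with the replicate block, 6 did with DESeq2 size factors (not ACKR4), 3 on log2(TPM + 1) and 2 on log2(TPM + 0.1), and 3 to 7 without single libraries, with the fewest without CRISPRko control 0 h replicate 1, GLIS3 CRISPRko 0 h replicate 1 or GLIS3 CRISPRko 0 h replicate 2. Calls between GLIS3 CRISPRko and its control were few and moved most. At 0 h they went from 33 to 112 with DESeq2, 137 with no filter and 11 and 12 on the TPM scales (+ 1 and + 0.1), at 6 h from 35 to 169, 142, 5 and 6, at 12 h from 9 to 42, 81, 3 and 2, and at 24 h from 23 to 37, 92 and, on log2(TPM + 0.1), 13. Without single libraries they ranged from 2 to 69, 5 to 57, 4 to 17 and 7 to 108 at these times. The 2 calls at 0 h were without CRISPRko control 0 h replicate 1, the 7 and 108 at 24 h without CRISPRko control 24 h replicate 2 and GLIS3 CRISPRko 24 h replicate 1. VP64_A against VP64_Ctrl went from 473 to 271 and 259 at 12 h on the TPM scales. At 0 h, without single libraries, it went from 1033 to between 487 (without VP64_Ctrl 0 h replicate 3) and 1145. It had 1147 calls at 0 h with DESeq2 and 1224 with no filter. The CRISPRko cytokine response at 24 h went from 2433 to 1449 and 1389 on the TPM scales. Response differences between the arms went at 6 h from 33 to 52 with DESeq2, 94 with no filter and 17 on log2(TPM + 0.1), at 12 h from 127 to 226 with no filter and 55, and at 24 h from 218 to 87. On the TPM scales the median of all genes fell by 0.43 and 0.55 at 6 h in the CRISPRa arm, where 735 genes were called higher and 5355 lower on log2(TPM + 1), next to 2237 and 1982 in counts. On log2(TPM + 0.1) VP64_A against VP64_Ctrl had 117 higher and 694 lower calls at 0 h, 183 and 109 at 6 h, and 95 and 258 at 24 h, next to 471 and 562, 204 and 209, and 219 and 234 in counts. In the CRISPRa arm on the TPM scales ACKR4 at 6 h reversed to -0.045 and -0.0129, and lay above that median by 0.38 and 0.54. The cause of these shifts was not tested. With the replicate number as a block, calls at 0 h were 36 in GLIS3 CRISPRko and 1162 in VP64_A; the ADIRF response at 12 h in the CRISPRa arm missed the threshold (adjusted p = 0.0589). Same-numbered libraries correlated at a median r of 0.00856 (CRISPRko arm) and 0.00844 (CRISPRa arm) in their deviations, against -0.00301 and -0.00621 for other libraries. Such medians do not tell whether same-numbered libraries were raised or handled together.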
